A study of Mus musculus with 4 samples.

Results

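Levels of 9 Polycomb group transcripts and of Asxl1 were examined in LSK cells, bone marrow cells that lack lineage markers and carry Sca-1 and c-Kit, among them the blood stem cells and multipotent progenitors. The genes were Ezh1, Ezh2, Eed and Suz12 of Polycomb repressive complex 2, Ring1, Rnf2, Bmi1, Pcgf5 and Cbx7 of Polycomb repressive complex 1, and Asxl1. They were taken as a set by name, and every non-control probe whose RefSeq transcript belongs to 1 of them was used. That gave 14 of the 55681 probes on the array, for 10 of the 20887 genes that could be named. Cbx7 was not well above background on any array, and the other 9 genes were among the 13033 genes compared.

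Each of 4 groups was measured on 1 single-colour array. Native wild-type and native Sf3b1+/- LSK cells came from C57BL/6 mice aged 20 weeks. Sf3b1+/- mice carry a single functional copy of Sf3b1, which encodes a core subunit of the U2 spliceosomal particle, and mice with no functional copy die before implantation. Transplanted wild-type and transplanted Sf3b1+/- LSK cells were CD45.2+ donor cells sorted from lethally irradiated CD45.1+ hosts 9 months after whole marrow had been transferred, so donor stem cells had rebuilt the marrow in wild-type surroundings. The labels count 4 mice for the native and 5 recipients for the transplanted collection, but do not tie them to single arrays. Transplanted cells were also older than native cells, and age and transplantation cannot be told apart.

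The share of spots well above background lay between 47.7% and 51.5% on the 4 arrays, and no spot was saturated. With 1 array per group, a difference between 2 arrays carries no replicate error and no p-value, and the number of arrays limits the precision. Sf3b1 itself (NM_031179) had a scaled signal of 436 units in native wild-type, 328 in native Sf3b1+/-, 273 in transplanted wild-type and 253 in transplanted Sf3b1+/- cells, lower in Sf3b1+/- cells by -0.41 and -0.11 (the latter turns under spike-in scaling). Which part of the gene is deleted is not stated in the labels, so this probe may not read the loss. The LSK markers Kit, Ly6a, Cd34, Flt3 and Cd48 were well above background on all 4 arrays. Levels are processed signals scaled so that the 75th percentile of the detected probes is equal on every array, and differences are log2 values of Sf3b1+/- minus wild type or of transplanted minus native. Against the spike-in RNAs the median of all compared genes was shifted by 0.22 (native genotype), 0.58 (transplanted genotype), 0.43 (wild-type transplantation) and 0.79 (Sf3b1+/- transplantation). That scaling raises every difference of a comparison by the same amount, so a smaller negative difference turns positive, and a negative difference below is a level lower relative to the bulk of genes on the array.

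Polycomb group proteins keep developmental genes silent. In complex 2, Ezh2 or its paralog Ezh1 methylates lysine 27 of histone H3 with the help of Eed and Suz12, and in complex 1, Ring1 or Rnf2 ubiquitinates histone H2A together with a Pcgf protein such as Bmi1, while Cbx proteins read the methyl mark. Asxl1 is a cofactor of the deubiquitinase Bap1, which removes that ubiquitin, and it has also been tied to complex 2. In blood, Bmi1 and Ezh1 are known for stem cell maintenance, and EZH2 and ASXL1, like SF3B1, are recurrently mutated in human myelodysplastic syndromes. Sf3b1 protein has been reported to bind Polycomb complex 1.

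Promoters of Ezh1, Ezh2, Suz12, Pcgf5 and Asxl1 are shown first, and those of the other genes of the set are not shown. Each run holds the 250 bases before the RefSeq transcription start in mouse assembly GRCm38.p6, 5′ to 3′ in the direction of the gene, with motif matches on either strand in capitals. The motifs searched were GCGGGAA (E2F type), CCGGAAG (ETS type), CCAAT (NF-Y type), CACGTG (E-box) and GGGCGG (Sp1 type), and matches of GCGGGAA and GGGCGG can overlap, as they do in Asxl1. Of the 3 Pcgf5 starts, the 1 with an E2F-type match is given, chosen for that match. The other Pcgf5 starts had none, and which start the measured RNA came from is not known here.
Ezh1 chr11:101226464-101226713 (minus strand): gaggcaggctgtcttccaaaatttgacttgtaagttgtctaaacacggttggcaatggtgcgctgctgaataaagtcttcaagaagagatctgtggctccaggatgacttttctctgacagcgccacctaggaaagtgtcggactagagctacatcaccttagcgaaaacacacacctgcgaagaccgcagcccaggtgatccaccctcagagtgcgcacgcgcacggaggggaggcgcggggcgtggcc
Ezh2 chr6:47595031-47595280 (minus strand): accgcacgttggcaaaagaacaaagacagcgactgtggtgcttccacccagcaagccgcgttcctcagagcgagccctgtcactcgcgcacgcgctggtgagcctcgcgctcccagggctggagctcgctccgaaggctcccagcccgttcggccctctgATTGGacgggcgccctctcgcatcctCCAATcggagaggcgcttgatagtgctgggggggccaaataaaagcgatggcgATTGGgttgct
Suz12 chr11:79992856-79993105 (plus strand): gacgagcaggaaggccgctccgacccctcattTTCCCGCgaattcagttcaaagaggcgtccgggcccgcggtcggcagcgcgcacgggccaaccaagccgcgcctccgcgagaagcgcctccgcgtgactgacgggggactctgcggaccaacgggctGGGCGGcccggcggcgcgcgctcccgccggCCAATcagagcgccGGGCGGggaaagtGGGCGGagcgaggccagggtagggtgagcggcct
Pcgf5 chr19:36409498-36409747 (plus strand): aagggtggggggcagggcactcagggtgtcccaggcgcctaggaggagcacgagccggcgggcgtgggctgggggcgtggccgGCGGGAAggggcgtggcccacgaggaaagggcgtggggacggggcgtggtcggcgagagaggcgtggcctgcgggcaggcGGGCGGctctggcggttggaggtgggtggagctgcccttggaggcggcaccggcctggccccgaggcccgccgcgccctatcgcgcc
Asxl1 chr2:153345580-153345829 (plus strand): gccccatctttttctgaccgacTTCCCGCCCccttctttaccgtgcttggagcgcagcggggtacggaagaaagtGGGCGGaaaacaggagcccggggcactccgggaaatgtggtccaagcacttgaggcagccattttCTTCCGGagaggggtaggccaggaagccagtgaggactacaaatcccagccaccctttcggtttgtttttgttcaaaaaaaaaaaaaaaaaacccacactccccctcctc
The Ezh1 window held none of the 5 motifs, whereas that of its paralog Ezh2 held 3 CCAAT matches. Suz12, Asxl1 and 1 of the 3 Pcgf5 windows each held 1 GCGGGAA match, and no other window of the 10 genes did. GCGGGAA was found in 3.82% of 32851 mouse promoter windows of this length, CCAAT in 33.8%, GGGCGG in 32.7%, CCGGAAG in 6.91% and CACGTG in 6.02%. These shares are per window, whereas Pcgf5 could match in any of 3 windows. The 10 genes have 12 such windows. GGGCGG was found in at least 1 window of 7 genes, CCAAT in 4, CCGGAAG in Asxl1 and CACGTG in Bmi1. A match is a run of letters and not evidence of binding.

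In native cells the Polycomb transcripts of Sf3b1+/- and wild-type mice were close to each other, with Asxl1 the largest difference at 1.28-fold higher in Sf3b1+/- cells. In transplanted cells the spread was wider, and Ezh1 was 1.48-fold higher in Sf3b1+/- cells. Eed and Bmi1 were 1.30-fold and 1.27-fold lower there, both turning higher under spike-in scaling. A second Bmi1 probe gave a smaller log2 difference, -0.12. Transplanted cells had less of most of these transcripts than native cells in both genotypes, led by Pcgf5, Asxl1 and Suz12, and relative to the spike-ins most of these signs turned. None of the 9 genes differed by 1.5-fold between genotypes, in native cells, where 7.95% of all compared genes did so in either direction, or in transplanted cells, where 14.2% did. Ezh1 in transplanted cells lay just under that limit and passed it with the 75th percentile over all probes, cyclic loess, spike-in scaling, the mean of its probes or the deposited series table. Between transplanted and native cells none of the 9 reached 1.5-fold in wild type (13.7% of all genes) and Pcgf5 alone, just at the limit, in Sf3b1+/- cells (18.4% of all genes).

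**Figure D1:**
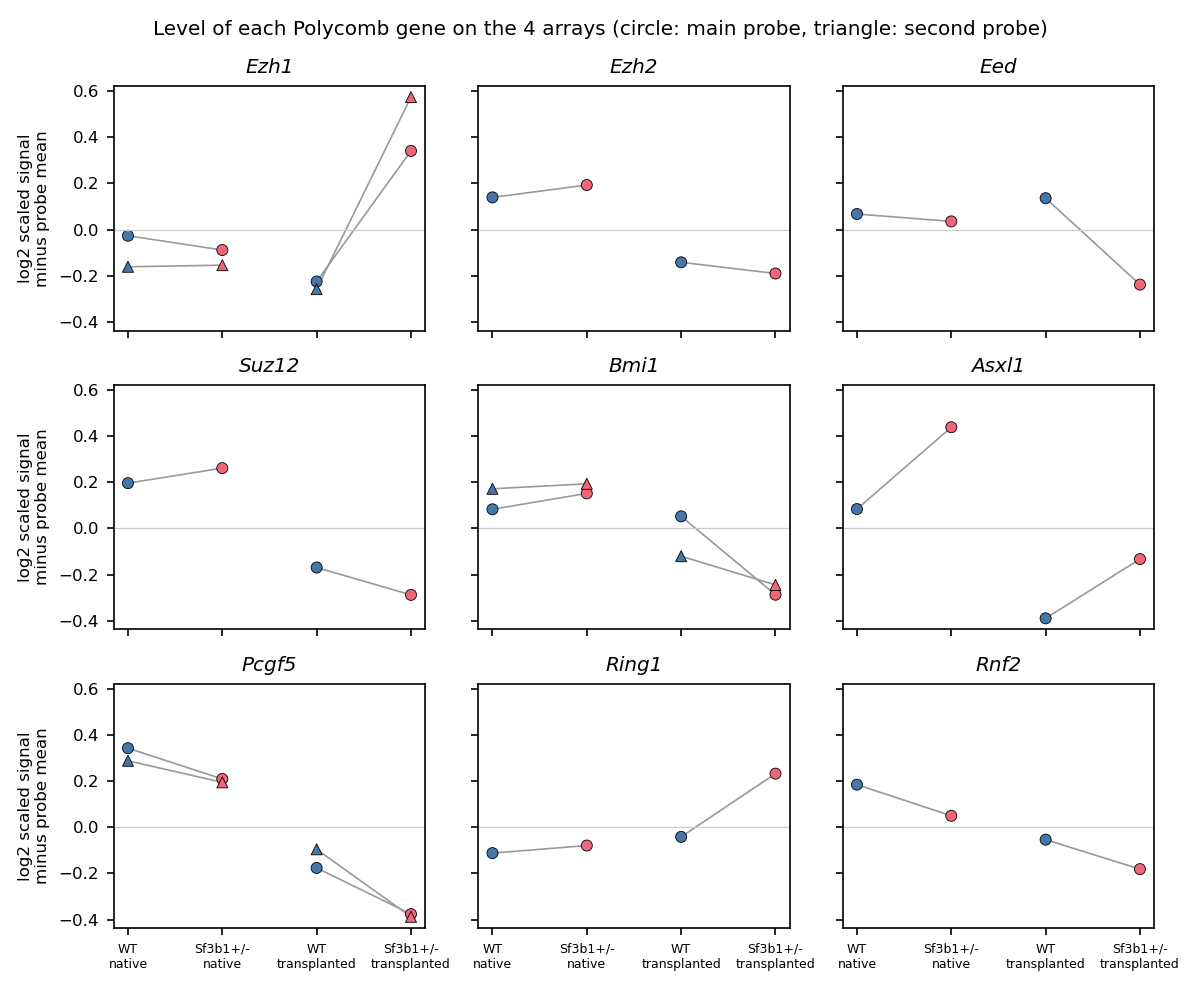
Level of each of the 9 detected genes on the 4 arrays, as log2 scaled signal minus the mean of the probe; circles are the main probe, triangles a second probe, blue is wild type, red is Sf3b1+/-, and lines join the genotypes within a setting. Both Ezh1 probes stand highest in transplanted Sf3b1+/- cells, and Asxl1 is higher in Sf3b1+/- than in wild-type cells in both settings; spike-in scaling would raise the transplanted points against the native ones.

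Among the genes of complex 2, the catalytic subunit Ezh1 (NM_007970) had the clearest array-specific level. Its main probe read 3759 units in native wild-type, 3601 in native Sf3b1+/-, 3276 in transplanted wild-type and 4850 in transplanted Sf3b1+/- cells. The first 3 arrays lie close together and transplanted Sf3b1+/- cells stand above them. The genotype difference was -0.06 in native (positive under spike-in scaling) and 0.57 in transplanted cells, and the transplantation difference was -0.20 in wild-type cells (0.23 under spike-in scaling) and 0.43 in Sf3b1+/- cells. A second Ezh1 probe read 881, 886, 824 and 1467 units in the same order and gave genotype differences of 0.01 and 0.83. Both probes therefore place the high value on the same array. Another, dim Ezh1 probe was well above background in native wild-type and transplanted Sf3b1+/- cells only, which bounds transplanted Sf3b1+/- cells at least 1.52-fold above transplanted wild-type cells and native wild-type at least 1.34-fold above native Sf3b1+/- cells. The bounds set the brighter signal against the lowest signal called well above background on the dimmer array. The native bound is not borne out by the 2 brighter probes, which gave -0.06 and 0.01. In native cells the dim probe read 23.0 (wild type) and 15.1 (Sf3b1+/-) units before scaling, with scanner errors of 22.1% and 31.6%. Its bounds are therefore not firm.

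The genotype difference of Ezh1 was larger in transplanted than in native cells by 0.63, or 1.55-fold. It was the only 1 of the 9 genes at or past 1.5-fold on this measure, against 13.5% of all compared genes in either direction, and 92.7% of genes had a lower value. For the same measure Bmi1 was at -0.41, Eed at -0.34 and Ring1 at 0.24. A second Bmi1 probe, with genotype differences of 0.02 in native and -0.12 in transplanted cells, changed less. With 1 array per cell of the design this quantity has no error estimate and was not tested. As measures of precision, the SD of a difference between 2 single spots of 1 probe was 0.156, and in 3068 genes with more than 1 detected probe the probes' genotype differences differed by a median of 0.14 in native and 0.22 in transplanted cells.

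Ezh2 (NM_007971), the main methyltransferase of dividing cells, read 3177 units in native wild-type, 3297 in native Sf3b1+/-, 2614 in transplanted wild-type and 2528 in transplanted Sf3b1+/- cells. The genotype differences were 0.05 in native and -0.05 in transplanted cells (the latter positive under spike-in scaling). Both transplanted arrays were below both native arrays, by -0.28 in wild-type and -0.38 in Sf3b1+/- cells (0.15 and 0.40 under spike-in scaling). Set against each other within an array, where a constant scaling factor cancels, Ezh1 differed from Ezh2 in its genotype difference by -0.12 in native and 0.61 in transplanted cells, which is 1.53-fold. In the transplantation difference the gap between the 2 paralogs was 0.08 in wild-type and 0.81 in Sf3b1+/- cells.

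Eed (NM_021876), which binds the methyl mark and stimulates the enzyme, read 5936, 5806, 6224 and 4802 units in native wild-type, native Sf3b1+/-, transplanted wild-type and transplanted Sf3b1+/- cells. Transplanted Sf3b1+/- cells were the lowest, with a genotype difference of -0.03 in native and -0.37 in transplanted cells (0.19 and 0.20 under spike-in scaling). Suz12 (NM_199196), the scaffold subunit, read 1767, 1849, 1372 and 1263 units in that order. Its genotypes were close, at 0.06 and -0.12 (the latter 0.46 under spike-in scaling), and transplanted cells were lower by -0.37 in wild type and -0.55 in Sf3b1+/- cells (0.07 and 0.24 under spike-in scaling). The 3 genes Ezh2, Eed and Suz12 thus did not share the high Ezh1 level of transplanted Sf3b1+/- cells: on this scale each was at its lowest on that array.

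Of the complex 1 ubiquitin ligases, Ring1 (NM_009066) was the dimmest detected gene, at 215 units in native wild-type, 220.1 in native Sf3b1+/-, 226 in transplanted wild-type and 273 in transplanted Sf3b1+/- cells. Only the last array stood apart, with genotype differences of 0.03 and 0.27. Its paralog Rnf2 (NM_011277) read 1283, 1168, 1087 and 995 units in that order, with a genotype difference of -0.13 in both settings (0.09 and 0.45 under spike-in scaling). Rnf2 was lower in transplanted cells by -0.24 in wild type and -0.23 in Sf3b1+/- cells (0.19 and 0.56 under spike-in scaling). Ring1 minus Rnf2, which constant scaling leaves as it is, was 0.17 for the native and 0.40 for the transplanted genotype difference.

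Bmi1 (NM_007552), the Pcgf subunit known for stem cell self-renewal, read 1385, 1452, 1356 and 1071 units in native wild-type, native Sf3b1+/-, transplanted wild-type and transplanted Sf3b1+/- cells. On this main probe the first 3 arrays were close together and transplanted Sf3b1+/- cells were lowest. The genotype difference was 0.07 in native and -0.34 in transplanted cells (0.24 under spike-in scaling). A second Bmi1 probe gave 554, 562, 452 and 415 units, with genotype differences of 0.02 and -0.12 (the latter positive under spike-in scaling). The size of the transplanted difference thus depended on the probe. On the second probe both transplanted arrays were below both native arrays, by -0.29 in wild-type and -0.44 in Sf3b1+/- cells. The main probe gave -0.03 and -0.44, and all of these turned positive under spike-in scaling. Pcgf5 (NM_029508), the Pcgf subunit of a variant complex 1, read 6094, 5555, 4253 and 3703 units in the same order. Both transplanted arrays lay below both native arrays, by -0.52 in wild-type and -0.59 in Sf3b1+/- cells, and a second probe gave -0.38 and -0.58; under spike-in scaling the main probe gave -0.09 and 0.20, and the second probe was positive in both. The genotype difference of Pcgf5 was -0.13 in native and -0.20 in transplanted cells (0.09 and 0.38 under spike-in scaling). Cbx7 (NM_144811), a reader of the methyl mark, had signals of 4.57, 9.55, 4.22 and 8.36 units before scaling, none of them well above background, and no fold is given.

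Asxl1 (NM_001039939) had a range of 0.83 over the 4 arrays, the widest of the main probes on this scale; the second Ezh1 probe also spanned 0.83, and under spike-in scaling the main probes of Ezh1 (1.38) and Ring1 (1.35) spanned more than Asxl1 (0.83). Its single probe read 3947 units in native wild-type, 5046 in native Sf3b1+/-, 2843 in transplanted wild-type and 3396 in transplanted Sf3b1+/- cells. Sf3b1+/- cells were higher than wild-type cells in both settings, and both transplanted arrays were below both native arrays. The genotype difference was 0.35 in native and 0.26 in transplanted cells, above 91.5% and 74.6% of all compared genes, and it stayed positive in both settings under all 9 alternatives run. The transplantation difference was -0.47 in wild-type and -0.57 in Sf3b1+/- cells (-0.04 and 0.22 under spike-in scaling). By the root mean square difference of centred log2 levels over the 4 arrays, the genes most like Asxl1 among 12175 detected on all arrays were Cyld (0.0202), H6pd (0.0233), Stam (0.0291), Eme1 (0.0318) and Tshz3 (0.0328), and 204 genes lay within 0.1.

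**Figure D2:**
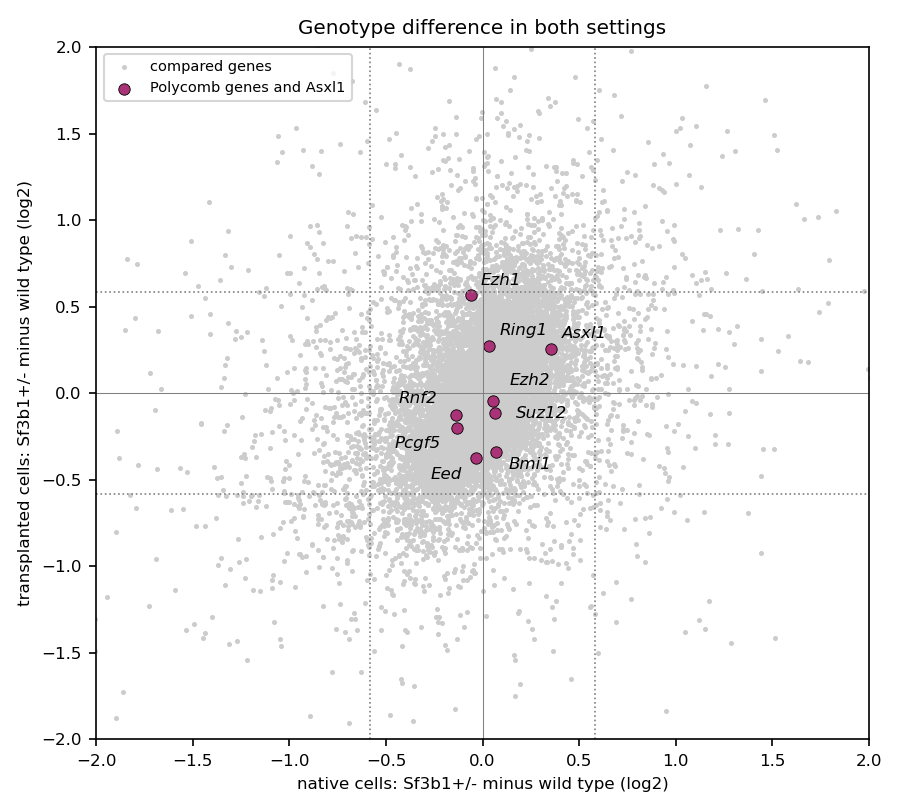
Genotype difference (Sf3b1+/- minus wild type, log2) in native cells on the x axis and transplanted cells on the y axis. Grey is for the 13033 compared genes and purple for the 9 detected genes of the set, Asxl1 among them. Dotted lines mark 1.5-fold. All 9 lie inside the lines, with Asxl1 farthest right and Ezh1 highest; under spike-in scaling all 9 are positive in both settings.

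In native cells 5 of the 9 genes were higher and 4 lower in Sf3b1+/- cells, with a median of 0.03 against -0.00 over all genes. In transplanted cells 3 were higher (Ezh1, Ring1, Asxl1) and 6 lower, with a median of -0.12 against 0.01. Relative to the median of all genes, quantile normalization, cyclic loess and normexp gave the same 5 and 3 higher; a constant shift such as spike-in scaling cannot change such a count. An additive model of genotype and transplantation, fitted with limma across all 13033 genes with 1 residual degree of freedom, called no gene of the 9 for genotype. It called 0% of all genes at a Benjamini-Hochberg adjusted p under 0.05 and 13.6% at an unadjusted p under 0.05 (6.25% higher), and none of the 9 at either. The lowest value was that of Asxl1, at 0.31 ± 0.12 (SE, n = 4 arrays, limma adjusted p = 0.38, range over the alternatives 0.14 to 0.41). Ezh1 was at 0.25 ± 0.20 (limma adjusted p = 0.54). With 1 array per group, the residual of this model is how far a gene's genotype difference changes between the settings, moderated across all genes. These SEs and p-values therefore hold no spread between replicate arrays. The labels also do not say that arrays stand for separate cultures or animals.

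**Figure D3:**
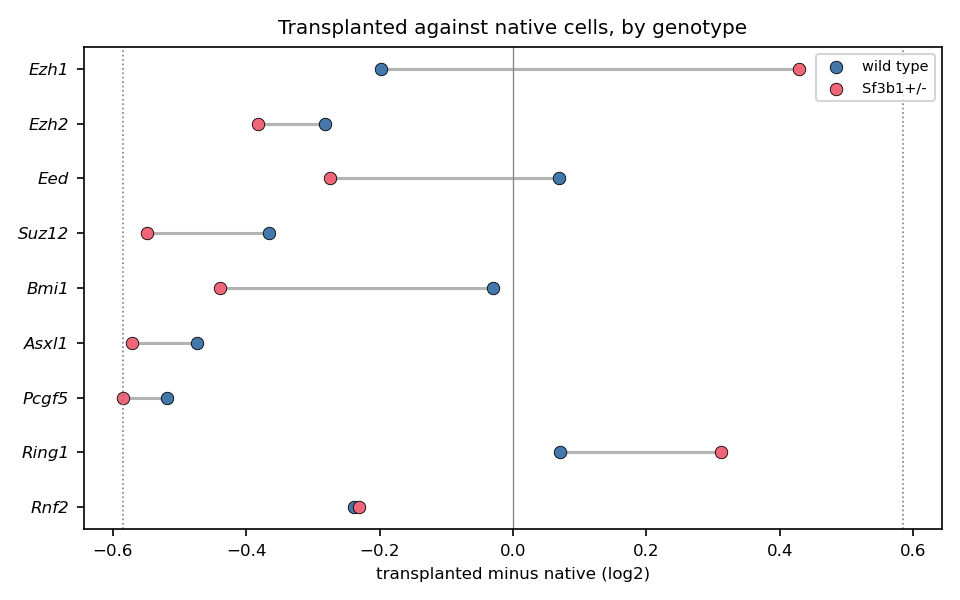
Transplanted minus native difference (log2) of each gene in wild-type (blue) and Sf3b1+/- (red) cells; dotted lines mark 1.5-fold. Ezh2, Suz12, Bmi1, Asxl1, Pcgf5 and Rnf2 lie left of 0 in both genotypes, Ezh1 and Eed lie on different sides, and only Ring1 lies right of 0 in both; with spike-in scaling all genes shift right, by 0.43 (wild type) and 0.79 (Sf3b1+/-) in the median of all genes.

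Between transplanted and native cells 7 of the 9 genes were lower in each genotype, with a median of -0.24 in wild type and -0.38 in Sf3b1+/- cells, against 0.00 and 0.01 over all genes. Most of these signs turned under spike-in scaling. Relative to the median of all genes, cyclic loess and normexp gave 2 higher in both genotypes, and quantile normalization gave 3 in wild type and 2 in Sf3b1+/- cells. In the limma model none of the 9 passed an adjusted p of 0.05 for transplantation, against 0.575% of all genes, and 3 had an unadjusted p under 0.05, all lower, against 12.2% of all genes in that direction. They were Pcgf5 at -0.55 ± 0.12 (SE, limma adjusted p = 0.13), Asxl1 at -0.52 ± 0.12 (limma adjusted p = 0.13) and Suz12 at -0.46 ± 0.13 (limma adjusted p = 0.15). With normexp background correction Asxl1 at -0.51 (limma adjusted p = 0.041) and Pcgf5 at -0.61 (limma adjusted p = 0.027) passed, as did 10.1% of all genes. With spike-in scaling Ezh1 at 0.73 (limma adjusted p = 0.041) and Ring1 at 0.80 (limma adjusted p = 0.025) passed, as did 41.9% of all genes. Suz12, Asxl1 and Pcgf5 (in 1 of its 3 windows) are also the genes with a GCGGGAA match shown above. This overlap was seen after both were known and was not tested.

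Genes of the G2 and M phases were lower on the same arrays. Of 20 such genes, 19 were lower in transplanted wild-type cells and all 20 in transplanted Sf3b1+/- cells, with medians of -0.59 in both (-0.15 and 0.20 under spike-in scaling), and 14 were lower at an unadjusted limma p under 0.05 (12.2% of all genes), none at an adjusted one. These counts rest on the brightest probe of each gene. In Sf3b1+/- cells, further probes of Ccnb1 (0.08 and 0.24), Birc5 (0.08) and Cdk1 (0.02) were not lower. Those of Mki67 (-0.63), Tpx2 (-0.96) and Ube2c (-0.40) were, as were other probes of Birc5 (-0.15) and Cdk1 (-0.62). Plk1, a mitotic kinase, read 5421, 7244, 2898 and 4084 units in native wild-type, native Sf3b1+/-, transplanted wild-type and transplanted Sf3b1+/- cells. Cenpe, a kinetochore motor, was at -0.92 in wild type and -1.04 in Sf3b1+/- cells. The part of cell cycle state in the lower Polycomb transcripts was not tested. In bulk samples, fewer cells of a type and less RNA per cell cannot be told apart.

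Markers of other cells also differed. The 12 detected of 13 stem cell markers had a median genotype difference of 0.06 in native and 0.74 in transplanted cells, where 11 were higher, and their summed scaled signal was 31584, 32112, 25894 and 34881 units in native wild-type, native Sf3b1+/-, transplanted wild-type and transplanted Sf3b1+/- cells. All 10 megakaryocyte and platelet markers were detected, with median genotype differences of 0.60 (native) and 1.16 (transplanted) and summed signals of 29805, 44769, 34940 and 67552 units. Of 11 early B cell markers 10 were compared, with medians of -1.28 and -0.79 and sums of 29781, 10813, 7341 and 5554 units, and Pax5 was not well above background on any array. Transplanted Sf3b1+/- cells, where Ezh1 was highest and Bmi1 and Eed lowest, thus had the highest sums of the stem cell and megakaryocyte lists and, on this scale, the lowest early B cell sum. Erythroid, neutrophil, T and NK cell, and macrophage and dendritic cell markers had median genotype differences of 0.75, -0.12, -0.37 and -0.24 in native cells. In transplanted cells these were 0.08, -0.06, -0.57 and -0.26.

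Markers also differed between transplanted and native cells, where 7 of the 9 detected genes of the set, Asxl1 among them, were lower. The early B cell median was -2.61 in wild-type and -2.0 in Sf3b1+/- cells. The macrophage and dendritic cell median was 0.98 and 0.95, that of neutrophils 0.65 and 0.16 and that of erythroid cells 0.32 and 0.53. The T and NK cell median was 0.08 and 0.35 over 9 genes, and 1.23 and 0.35 over the 7 detected on all 4 arrays. In wild-type cells 4 of these 9 genes (Gzma, Klrb1c, Gzmb and Il2rb) were higher, by 1.23 to 1.85. The others lay between -0.17 and 0.08. In Sf3b1+/- cells 4 of the 9 were at least 1.5-fold higher and 1 was lower by that much. Stem cell markers had a median of -0.04 (positive under spike-in scaling) and 0.78, and megakaryocyte markers of 0.07 and 0.53. In Sf3b1+/- cells 8 of the 12 stem cell markers were higher and 4 lower. The lower ones were Hlf (-1.02), Mecom (-0.48), Hoxa9 (-0.20) and Meis1 (-0.17), of which only Hlf stays lower under spike-in scaling. Of the LSK markers, Flt3, a receptor of multipotent progenitors, was at -0.61 and -1.20 and Ly6a, which encodes Sca-1, at 0.19 and 0.99. The part of cell composition in the Polycomb values was not tested.

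**Figure D4:**
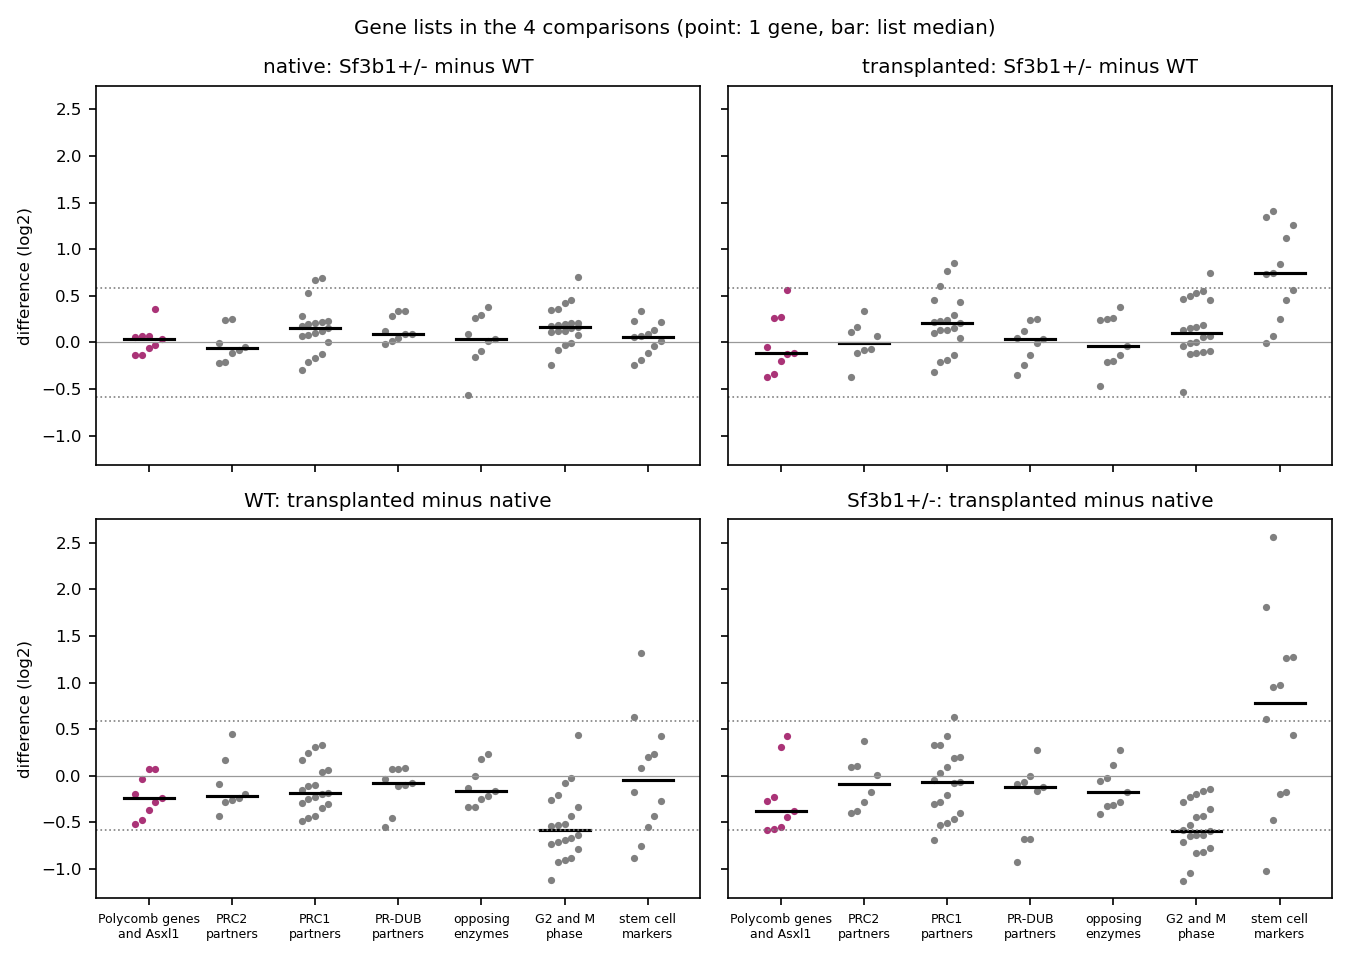
Differences (log2) of single genes (points) and list medians (bars) in the 4 comparisons for the Polycomb genes and Asxl1, their partners, opposing enzymes, G2 and M phase genes and stem cell markers; dotted lines mark 1.5-fold. The stem cell marker median is high in transplanted Sf3b1+/- cells, where 4 of 12 markers are lower than in native Sf3b1+/- cells. G2 and M phase genes are mostly low in transplanted cells. Under spike-in scaling all points of a panel shift up by 0.22, 0.58, 0.43 and 0.79 in the median of all genes.

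The other subunits of complex 2 showed small differences. Of 8 accessory genes, all detected, 2 were higher and 6 lower in native Sf3b1+/- cells (median -0.06, or 0.16 under spike-in scaling), and 4 were higher and 4 lower in transplanted ones (median -0.00, or 0.57), none by 1.5-fold. Rbbp4, a histone-binding subunit, read 21398, 18517, 24078 and 18606 units in native wild-type, native Sf3b1+/-, transplanted wild-type and transplanted Sf3b1+/- cells, lower in Sf3b1+/- cells by -0.21 and -0.37 (both positive under spike-in scaling). Epop, which links complex 2 to elongin, read 1686, 1996, 2306 and 2588 units and was higher in transplanted cells by 0.45 in wild type and 0.37 in Sf3b1+/- cells. Phf19, a Polycomb-like protein that recruits the complex, had genotype differences of -0.01 and 0.33. Its relative Mtf2 was at 0.25 and 0.07. Rbbp7 was lower in transplanted cells by -0.43 and -0.40 on its main probe (not lower under spike-in scaling), whereas a second probe gave 0.01 and 0.14.

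Most partners of complex 1 were higher in Sf3b1+/- than in wild-type cells. Of 21 listed genes 19 were compared, and in each setting 15 were higher and 4 lower, the median being 0.15 (native) and 0.20 (transplanted), against -0.00 and 0.01 over all genes. Relative to the median of all genes, 15 were higher in transplanted cells with quantile normalization, cyclic loess and normexp as well, whereas in native cells 14, 14 and 12 were. At least 1.5-fold higher were 2 in native cells (3.25% of all genes) and 3 in transplanted cells (7.8% of all genes), and none was lower by that much (4.7% and 6.42% of all genes). L3mbtl2, a chromatin-binding subunit of a variant complex, read 109, 173, 129 and 233 units in native wild-type, native Sf3b1+/-, transplanted wild-type and transplanted Sf3b1+/- cells, higher in Sf3b1+/- cells by 0.67 and 0.85. Its genotype effect of 0.76 ± 0.13 (SE) had a limma adjusted p of 0.31, the lowest of the list and shared with many genes. Cbx2, a methyl-mark reader, read 323, 522, 290.5 and 323 units, with 0.69 in native and 0.15 in transplanted cells. Pcgf2, a close relative of Bmi1, read 68.8, 77.5, 71.0 and 120.3 units, with 0.17 and 0.76. Bcorl1, also past 1.5-fold in transplanted cells at 0.60 and named after its value was seen, had a second probe at -0.01. None of the 19 passed an adjusted p of 0.05 in the limma model for either factor, and at an unadjusted p under 0.05, 2 were higher for genotype (6.25% of all genes) and 3 lower for transplantation (12.2% of all genes). Rybp, which binds Ring1 proteins, was lower in transplanted cells by -0.45 and -0.53, and Phc1, a polymerizing subunit, by -0.49 and -0.47; these signs do not hold for Rybp and Phc1 in Sf3b1+/- cells under spike-in scaling, where the bulk is shifted by 0.79.

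The Bap1 deubiquitinase partners of Asxl1 were compared for 9 of 10 genes. In native cells 8 were higher and 1 lower (median 0.09), and in transplanted cells 5 were higher and 4 lower (median 0.04). Mbd6, a methyl-CpG-binding-domain protein of the complex, read 3512, 4447, 3720 and 4439 units in native wild-type, native Sf3b1+/-, transplanted wild-type and transplanted Sf3b1+/- cells, the same order of genotypes as Asxl1, with 0.34 and 0.26. Ogt, the O-GlcNAc transferase, was at 0.28 and 0.12 on the main probe and at -0.05 and -0.32 on a second probe (positive under spike-in scaling). Between transplanted and native Sf3b1+/- cells 3 were lower by at least 1.5-fold (7.01% of all genes): Mbd5 at -0.93, Hcfc1, a transcriptional coregulator, at -0.68, and the paralog Asxl2 at -0.67. In wild-type cells these 3 were at -0.55, -0.45 and -0.10. A second Asxl2 probe was at -0.49 in Sf3b1+/- cells, under the 1.5-fold limit, and at 0.20 in wild-type cells. Under spike-in scaling the bulk shift of 0.79 leaves only Mbd5 lower in Sf3b1+/- cells. None passed an adjusted p of 0.05 in the limma model, and 2 were lower for transplantation at an unadjusted p under 0.05 (12.2% of all genes).

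Among enzymes that oppose Polycomb, 9 of 10 were compared, with median genotype differences of 0.04 in native and -0.04 in transplanted cells and none past 1.5-fold. Kdm6b, which demethylates lysine 27 of histone H3, read 3825, 2594, 4329 and 3134 units in native wild-type, native Sf3b1+/-, transplanted wild-type and transplanted Sf3b1+/- cells. It was lower in Sf3b1+/- cells by -0.56 and -0.47 (the latter turns under the spike-in shift of 0.58), with an effect of -0.51 ± 0.12 (SE, limma adjusted p = 0.34). Its relative Kdm6a was at -0.09 and -0.21 (positive under spike-in scaling). Men1, a subunit of histone H3 lysine 4 methyltransferases, was at 0.38 and 0.26, with a second probe at 0.12 and -0.03, and Rbbp5, a core subunit, was at 0.26 and 0.38. The core subunit Wdr5 was lower in transplanted cells by -0.34 and -0.41 and the methyltransferase Kmt2c by -0.33 and -0.32. Spike-in scaling turns the transplanted signs of Wdr5 and Kmt2c in both genotypes.

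Of 11 known Polycomb targets in blood progenitors, 8 were compared, 5 of them detected on all 4 arrays. Cdkn2a, the tumour suppressor locus that Bmi1 and Ezh2 hold silent, had scaled signals of 8.64, 9.58, 49.4 and 56.3 units in native wild-type, native Sf3b1+/-, transplanted wild-type and transplanted Sf3b1+/- cells. It was well above background on the transplanted arrays only, at least 2.07-fold higher than in native cells in wild type and at least 2.73-fold higher in Sf3b1+/- cells. Ebf1, a B lineage transcription factor, had 219, 90.9, 24.0 and 8.86 units and was well above background on the native arrays only, so at least 9.15-fold lower in transplanted wild-type and at least 5.57-fold lower in transplanted Sf3b1+/- cells. Both genes were compared only through the arrays on which they are high. The limma adjusted p for transplantation, 0.036 for Cdkn2a and 0.033 for Ebf1 (0.575% of all genes passed), therefore rests on signals not above background and gives no support. With normexp the effects were 0.61 and -1.39 in place of 2.54 and -3.28, and with the mean of all probes that of Cdkn2a was 1.13. The calls did not hold with quantile normalization (limma adjusted p = 0.066 for Cdkn2a and 0.065 for Ebf1), cyclic loess (0.051 for both), no filter (0.17 for both) or the mean of all probes (0.087 and 0.055), nor that of Cdkn2a with the deposited series table (0.052). Ebf1 is also among the early B cell markers given above. Hmga2, a chromatin protein of fetal stem cells, read 237, 192, 103 and 90.4 units, with -1.20 in wild-type and -1.09 in Sf3b1+/- transplantation differences (limma adjusted p = 0.066). Pax5, Lin28b and Igf2bp3 were not well above background on any array.

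Hox genes, the classical Polycomb targets, reached the detection limit for comparison in 17 of 39 cases. Their median genotype difference was 0.04 in native cells and 0.49 in transplanted cells, and over the 12 detected on all 4 arrays it was 0.04 and 0.37. In transplanted cells 8 of the 17 were at least 1.5-fold higher in Sf3b1+/- cells (7.8% of all genes) and none lower (6.42%). Hoxb6 read 78.8, 75.8, 112 and 479 units in native wild-type, native Sf3b1+/-, transplanted wild-type and transplanted Sf3b1+/- cells. Hoxb2 read 120.1, 169, 191 and 574 units, and Hoxb5 58.7, 68.5, 90.9 and 241 units. All 3 were highest on the array on which Ezh1 was highest. Of the A cluster, Hoxa10 was at -0.48 and -0.17 (the latter turns under spike-in scaling), Hoxa9 at 0.02 and 0.25 and Hoxa5 at 0.04 and 0.07 for genotype. A second Hoxa9 probe, detected on all 4 arrays, gave 0.36 and 0.06. None of the 17 passed an adjusted p of 0.05 in the limma model, for genotype or transplantation, and at an unadjusted p under 0.05, 3 were higher for genotype (6.25% of all genes), and 8 were higher (13.6%) and 2 lower (12.2%) for transplantation. Some of the 17 were compared only because they were detected in the group where they are high. Hoxb5 and Hoxa9 also count among the stem cell markers.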

How the data were processed

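RNA of sorted LSK cells was amplified from 20 ng with spike-in RNAs and labelled with Cy3, per the labels' protocols. The arrays were of Agilent design 028005 with probe positions on build mm9, read with Feature Extraction 10.7.1.1, per the file headers. The deposited scanner files hold intensity values: the processed signal is background-subtracted within an array and not scaled between arrays, per the file headers. The deposited series table holds ratio values, which the values show to be the processed signal divided by 1 constant per array (75th percentile 1 to 1.01, medians 0.081, 0.0745, 0.0816 and 0.0747, r = 1 with the processed signal); it was used as an alternative.

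On each array the 75th percentile was subtracted from the log2 processed signal, taken over probes well above background on all 4 arrays, since 49.5% of spots were well above background. These percentiles were 1652, 1940, 1824 and 2686 units in native wild-type, native Sf3b1+/-, transplanted wild-type and transplanted Sf3b1+/- cells. Outlier spots were left out, genes detected (well above background) on 2 or more arrays were compared, and the brightest probe represented a gene. Names and promoter sequences came from RefSeq (GRCm38.p6), and all 10 genes matched. Differences of at least 1.5-fold were counted with no test. The additive model was fitted with limma 3.58.1 (lmFit and eBayes, two-sided, Benjamini-Hochberg 0.05, prior of 3.04 degrees of freedom) in R 4.3.3. Tested on simulated data for the genotype effect in 13033 genes, 10% of 2-fold changes and, after the same adjustment, 93% of 4-fold changes were called. Normexp (offset 50) used the median spot signal. Spike-in scaling used 8 E1A probes. The scanner software's error was 10% to 10.3% of the signal for the 12 Polycomb probes detected on all arrays.

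The 10 genes, the lists and the rule for named genes were chosen with earlier results of these data known. The rule names all 10 genes, from each list up to 3 genes with the largest mean genotype and up to 3 with the largest mean transplantation difference among those detected on all arrays, listed genes past the limma threshold, and the 5 genes most like the most variable of the 10. Arrays shared 1 slide.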

Additional observations from a re-analysis of the deposited data

Results flagged for a closer look

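Ezh1 differed in direction between the genotypes: transplanted minus native was -0.20 in wild-type cells and 0.43 in Sf3b1+/- cells on the main probe. Each exceeds the SD of a difference between 2 single spots (0.156), which holds no spread between samples. The second probe gave -0.10 and 0.73, so its wild-type value lay within that SD. Over all compared genes the robust SD of these differences was 0.37 in wild-type and 0.40 in Sf3b1+/- cells. Each value rests on 1 array per group, and the difference was not tested. Under spike-in scaling both main-probe values were positive, at 0.23 and 1.22.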

How the results depend on the processing

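Of 90 summary values recomputed under 9 alternatives, 71 kept their direction and side of the threshold, or moved by less than the spread between spots, and of 502 values of single genes 443 did. No paired analysis was possible because each group has 1 array and the arrays share only the number 1. The main limit is scaling. Under spike-in scaling the median differences of the 9 genes were 0.25 (native genotype), 0.46 (transplanted genotype), 0.19 (wild-type transplantation) and 0.40 (Sf3b1+/- transplantation), 3 genes were at least 1.5-fold apart between transplanted genotypes and 2 between Sf3b1+/- settings, and 2 passed the limma test for transplantation. The shares of all genes were then 50.4%, 71.3% and 41.9%. Reversals of differences larger than 0.156, the SD of a difference between 2 single spots, are listed first. Spike-in scaling reversed the transplanted genotype difference of Eed (0.20), Bmi1 (0.24) and Pcgf5 (0.38). It reversed wild-type transplantation differences of Ezh1 (0.23), Ezh2 (0.15), Suz12 (0.067) and Rnf2 (0.19). It reversed Sf3b1+/- transplantation differences of Ezh2 (0.40), Eed (0.51), Suz12 (0.24), Bmi1 (0.35), Asxl1 (0.22), Pcgf5 (0.20) and Rnf2 (0.56). In the limma model it reversed the genotype effect of Eed (0.20) and Pcgf5 (0.23) and the transplantation effect of Ezh2 (0.28), Suz12 (0.15), Bmi1 (0.38), Asxl1 (0.088), Pcgf5 (0.058) and Rnf2 (0.38). Smaller negative differences turned positive too. For genotype these were Ezh1 (0.16), Eed (0.19), Pcgf5 (0.088) and Rnf2 (0.086) in native cells. In transplanted cells they were Ezh2 (0.53), Suz12 (0.46) and Rnf2 (0.45). Bmi1 turned in wild-type transplantation (0.40). In the limma model the genotype effects of Suz12 (0.37), Bmi1 (0.26) and Rnf2 (0.27) turned, as did the transplantation effect of Eed (0.51). The construction of this scaling shows the cause, a constant shift of all genes. The count of genes at least 1.5-fold apart between transplanted genotypes was 1 with the 75th percentile over all probes, cyclic loess, the mean of all probes and the deposited series table. That between Sf3b1+/- settings was 2 with the 75th percentile over all probes, quantile normalization, cyclic loess, normexp, no filter and the deposited series table. With no filter the native genotype count was 1, from Cbx7 at background. With normexp 2 genes passed the limma test for transplantation (10.1% of all genes). For these the cause was not tested. Signal over background limits Cbx7, the third Ezh1 probe, Cdkn2a and Ebf1 to bounds or no value.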
